A study of Homo sapiens with 11 samples.

Results

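A set of 9 antiviral and retroelement restriction factor genes was followed through the total RNA data: the cytidine deaminases APOBEC3B, APOBEC3C, APOBEC3D, APOBEC3F and APOBEC3G, and TRIM5, TREX1, MOV10 and ZC3HAV1. They were chosen by gene symbol, and each of the 9 symbols matched 1 of the 58699 genes in the deposited expression table. The cells were HCT116, an established human colorectal carcinoma line, in 4 groups of 2 libraries. All 4 groups were transfected, either with an siRNA against luciferase (siLuc), which served as the control, or with one against the RNA-binding protein Staufen1 (siStau1). Each siRNA was combined with the solvent DMSO or with decitabine (DAC), a nucleoside that blocks maintenance of DNA methylation, at 500 nM for 5 days. The authors' values are 1 FPKM per gene and group, that is, fragments scaled to transcript length and to the size of the library, so neither the spread between the 2 libraries nor their depth is known. All 4 groups come from 1 cell line, a transient knockdown and 1 DAC dose, and the labels do not say whether the libraries of a group came from separate cultures, so the authors' p-values may measure technical spread only.

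Restriction factors are host proteins that block viruses and endogenous retroelements at separate steps. APOBEC3 enzymes deaminate cytidines in single-stranded DNA, such as the first strand copied from a retroviral or retrotransposon RNA. TRIM5 binds incoming retroviral capsids, TREX1 is an exonuclease that degrades DNA in the cytosol, MOV10 is an RNA helicase that limits retrotransposition, and ZC3HAV1 (also called ZAP) binds RNA rich in CpG dinucleotides and directs it to decay. Several of these genes are known to be induced by interferon, and DAC is known to raise transcripts of endogenous retroviruses, the kind of RNA and DNA on which these proteins act.

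The 5 APOBEC3 members lie in the same orientation in 1 cluster on chromosome 22. In GENCODE release 29 on GRCh38, APOBEC3B (ENSG00000179750.15) spans 38982347 to 38992804, APOBEC3C (ENSG00000244509.3) 39014083 to 39020352 and APOBEC3D (ENSG00000243811.9) 39021113 to 39033276. APOBEC3F (ENSG00000128394.16) spans 39040604 to 39053910 and APOBEC3G (ENSG00000239713.8) 39077005 to 39087743. ZC3HAV1 (ENSG00000105939.12) lies on chromosome 7 from 139043520 to 139109719, MOV10 (ENSG00000155363.18) on chromosome 1 from 112673141 to 112700746, TRIM5 (ENSG00000132256.18) on chromosome 11 from 5663557 to 5938619 and TREX1 (ENSG00000213689.13) on chromosome 3 from 48465811 to 48467645. All 9 are protein-coding.

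How well reads could be assigned differed between the genes. Of the 50-base words in the longest transcript, another gene's transcripts also held all of those of TREX1, which lies in the checkpoint gene ATRIP on the same strand. The shared part was 88.4% for APOBEC3D, mostly with the readthrough gene AL022318.4, 39.6% for APOBEC3B, mostly with APOBEC3A, 24.2% for APOBEC3F and 10.6% for TRIM5. It was 1.16% for APOBEC3C, 0.581% for ZC3HAV1, 0.293% for APOBEC3G and 0 words for MOV10. The values of TREX1, APOBEC3D, APOBEC3B, APOBEC3F and TRIM5 are therefore uncertain, while the longest transcripts of ZC3HAV1, MOV10, APOBEC3G and APOBEC3C are nearly unique in sequence. Shorter transcripts were not searched this way. For APOBEC3F the gene sharing most was APOBEC3G, whose transcripts held 11.4% of its words. Reads of APOBEC3G may thus also be shared with APOBEC3F. TRIM5 was further placed by the authors in a stretch of 52 genes from 5248079 to 5938619. The opposite-strand gene TRIM22 and the same-strand gene AC104389.4 overlap it, and the latter had 15.1 FPKM with DMSO and 6.60 with DAC under siLuc, and 10.7 and 8.25 under siStau1.

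Promoter sequences are shown because CpG sites are where DAC acts and because interferon acts through short promoter motifs. RefSeq promoter windows (GRCh38.p14) were matched for 4 of the 9 genes, ZC3HAV1, MOV10, TREX1 and TRIM5, and not for APOBEC3B, APOBEC3C, APOBEC3D, APOBEC3F and APOBEC3G. The 250 bases before the transcription start are given for each, read 5′ to 3′ on the strand of the gene, with CpG sites in capitals. The ZC3HAV1 window is chr7:139109721-139109970 on the minus strand, that of the most upstream of 3 MOV10 starts chr1:112674189-112674438 on the plus strand, that of TREX1 chr3:48465580-48465829 on the plus strand and that of TRIM5 chr11:5685075-5685324 on the minus strand.
ZC3HAV1: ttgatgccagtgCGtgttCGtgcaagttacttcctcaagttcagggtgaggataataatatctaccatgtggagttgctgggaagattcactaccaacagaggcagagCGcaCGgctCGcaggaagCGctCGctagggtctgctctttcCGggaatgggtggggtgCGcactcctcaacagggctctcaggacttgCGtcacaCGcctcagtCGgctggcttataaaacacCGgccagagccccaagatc
MOV10: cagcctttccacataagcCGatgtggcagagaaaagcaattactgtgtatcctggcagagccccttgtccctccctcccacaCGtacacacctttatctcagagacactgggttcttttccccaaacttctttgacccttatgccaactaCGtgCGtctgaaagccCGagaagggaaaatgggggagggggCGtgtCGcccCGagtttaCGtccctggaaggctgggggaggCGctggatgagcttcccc
TREX1: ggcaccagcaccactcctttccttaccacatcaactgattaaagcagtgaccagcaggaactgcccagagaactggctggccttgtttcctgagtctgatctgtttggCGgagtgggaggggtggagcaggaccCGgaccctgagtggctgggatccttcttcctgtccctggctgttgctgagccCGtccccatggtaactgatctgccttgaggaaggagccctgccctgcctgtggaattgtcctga
TRIM5: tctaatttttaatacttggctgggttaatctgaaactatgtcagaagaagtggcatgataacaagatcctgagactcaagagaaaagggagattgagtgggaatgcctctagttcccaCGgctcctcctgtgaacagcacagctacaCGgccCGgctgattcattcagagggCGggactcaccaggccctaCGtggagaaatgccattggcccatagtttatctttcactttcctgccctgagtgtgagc
The windows held 13 CpG sites in ZC3HAV1, 10 at each of the 3 MOV10 starts, 5 in TRIM5 and 3 in TREX1, against a median of 11 and quartiles of 3 and 23 over 35116 windows. None of the 4 genes is thus at the CpG-rich end, and methylation itself was not measured.

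The same windows were searched on both strands for GAAA, any 2 bases and GAAA again, the core of the interferon-stimulated response element. Only TRIM5 of the 4 genes held it, on the opposite strand and beginning 27 bases before the start. The match is shown in capitals with 15 bases on each side.
TRIM5 match: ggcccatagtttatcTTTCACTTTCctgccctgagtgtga
Of all windows, 3.02% held this motif. The gamma-activated site TTCNNNGAA, a palindrome, was found once in the ZC3HAV1 window, in none of the other windows of these genes, and in 6.57% of all windows. A match describes the letters only and shows no binding.

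The labels were first checked in the same groups. STAU1 had 35.5 FPKM with DMSO and 33.7 with DAC under siLuc, and 29.98 and 27.1 under siStau1, so the mRNA was only slightly lower in the groups labelled siStau1. The authors' deposited table did not call it, with q-values of 0.767 in DMSO and 0.685 in DAC. Of 7 epithelial markers, 6 had at least 1 FPKM in every group, and villin (VIL1) stayed between 0.00970 and 0.198 FPKM. Their levels were not constant. With DAC in siLuc, EPCAM was called lower, from 259 to 117 FPKM, and KRT20 higher, from 1.16 to 6.24 FPKM. In siStau1, 2 of the 6 tested were called higher with DAC, beside 4.56% of all tested genes, and 0 lower. Of 9 markers of leukocytes, endothelium and fibroblasts, 5 were listed at 0 in siLuc DMSO (PTPRC, CD3E, PECAM1, CDH5 and COL1A2), 3 in siStau1 DMSO (PTPRC, CDH5 and COL1A2) and none in the DAC groups. In bulk RNA, fewer cells of a kind and less RNA per cell cannot be told apart.

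At baseline, in siLuc DMSO, the factors acting on RNA were the highest of the 9 genes per length. ZC3HAV1 had 48.4 FPKM and MOV10 22.8, above 90.4% and 81.3% of protein-coding genes. TRIM5 followed with 17.3 FPKM, APOBEC3C with 11.9, TREX1 with 5.43, APOBEC3B with 4.75, APOBEC3F with 3.21, APOBEC3G with 0.793 and APOBEC3D with 0.109. Differences between neighbours in this order cannot be set against a replicate spread. The plot of levels by gene and group shows this order beside the response to DAC and to the siRNA.

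**Figure D1:**
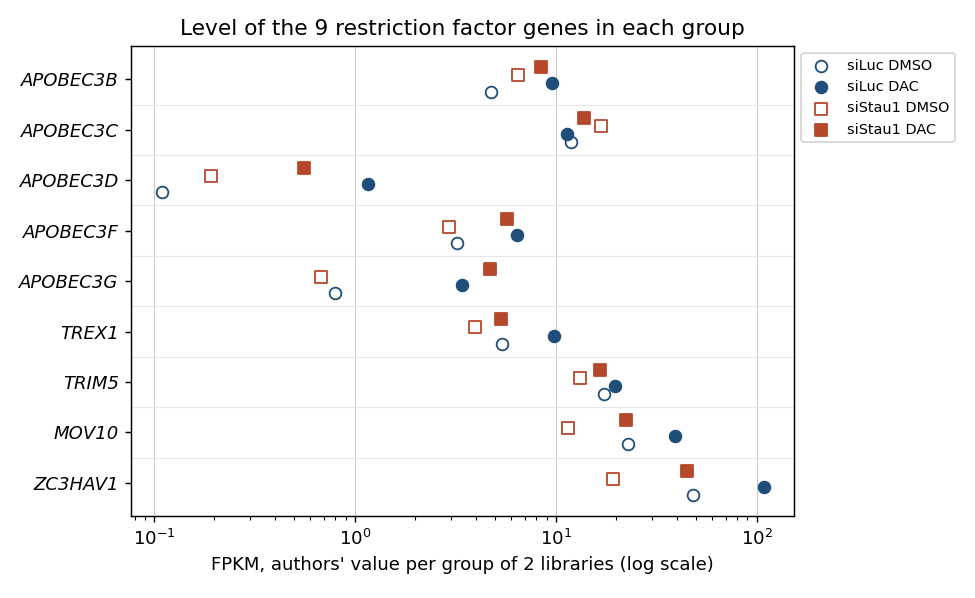
FPKM of the 9 genes (rows) on a logarithmic axis, 1 authors' value per group of 2 libraries, without error bars because no value per library was given. Circles are siLuc and squares siStau1, open symbols DMSO and filled symbols DAC. ZC3HAV1 spans 19.3 to 108 FPKM, and APOBEC3C stays between 11.3 and 16.9 FPKM.

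Counted together, 2 of the 9 genes were called higher with DAC in siLuc, where 8.71% of 17504 tested genes were, and 2 of 9 in siStau1, where 4.56% of 16979 were. In both arms these were ZC3HAV1 and APOBEC3G. With the knockdown, 1 of 8 tested members was called lower in DMSO, against 0.466% of 15893 tested genes, and 1 of 9 in DAC, against 0.469% of 17263. Both were ZC3HAV1. By the authors' Cuffdiff test 0 members were called lower with DAC, where 4.78% of tested genes were in siLuc and 2.89% in siStau1, and 0 were called higher with the knockdown, where 0.333% were in DMSO and 0.434% in DAC. At an unadjusted p under 0.05 in either direction there were 4 members with DAC in siLuc, 3 in siStau1, 2 with the knockdown in DMSO and 2 in DAC, beside 28.9%, 19.0%, 4.30% and 6.95% of tested genes. Other readings of the authors' p-values were also counted. At a q-value under 0.01, 5.59% of tested genes were called higher with DAC in siLuc, 2.78% in siStau1, and 0.201% and 0.127% lower with the knockdown in DMSO and DAC, and the members called were 0, 1, 0 and 1. When p-values were adjusted within each comparison alone these shares were 10.7%, 4.54%, 0.126% and 0%, and the members called were 2, 2, 0 and 0. Among genes with 1 FPKM or more in each compared group, 1 member was called in each comparison, against 7.21% and 2.83% higher with DAC in siLuc and siStau1 and 0.375% and 0.501% lower with the knockdown in DMSO and DAC.

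The median log2 ratio, computed here from FPKM with 0.1 added, was 0.98 over the 9 genes with DAC in siLuc and 0.94 in siStau1, beside 0.23 and 0.11 over all tested genes. With the knockdown it was −0.20 in DMSO and −0.25 in DAC, beside −0.02 and −0.14. Ratios were also centred on the median of genes of like GC content (GC centring), and the medians of the 9 genes were then 0.67 and 0.65 with DAC, 0.03 with the knockdown in DMSO and −0.27 with it in DAC. Centring thus turned the sign for the knockdown in DMSO, where 3 genes had a higher and 6 a lower value before it, and 5 and 4 after it. Under DAC, 8 of the 9 genes had a higher value in each arm, as did 57.1% and 54.1% of tested genes, and after GC centring 7 of the 9 did. The comparisons share groups, so a pattern seen in more than one of them is not independent.

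**Figure D2:**
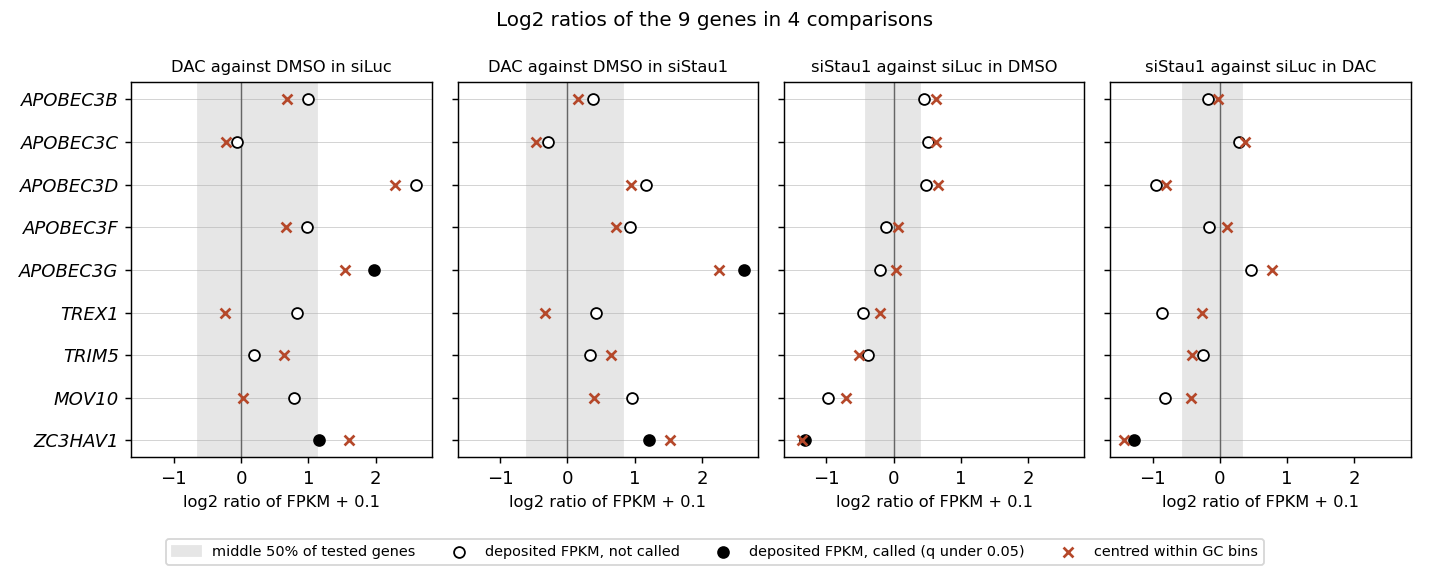
Log2 ratios of the 9 genes (rows) in the 4 comparisons, from FPKM with 0.1 added. Circles are ratios of the deposited values, filled where the authors called the gene, crosses are ratios centred within bins of transcript GC content, and the grey band holds the middle 50% of tested genes. ZC3HAV1 is filled in all 4 panels, with ratios of 1.16, 1.21, −1.32 and −1.27 from left to right, and its crosses lie farther from 0 than its circles in each.

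ZC3HAV1 was called in all 4 comparisons by the authors' test, the only one of the 9 genes for which this was so. It had 48.4 FPKM with DMSO and 108 with DAC under siLuc, and 19.3 and 44.9 under siStau1. The siLuc DAC group was the highest and the siStau1 DMSO group the lowest, while siLuc DMSO and siStau1 DAC lay close together. With DAC it rose 2.24-fold in siLuc and 2.33-fold in siStau1. In the authors' deposited table these rises had q-values of 0.0393 and 0.0377, and calls were made at a q-value under 0.05. In siStau1 it fell to 0.399 of the siLuc level in DMSO and to 0.415 of it in DAC, with q-values of 0.0279 and 0.00732 in the authors' deposited table. When the authors' p-values were adjusted within each comparison alone, the knockdown calls were lost, with adjusted p of 0.284 in DMSO and 0.179 in DAC, and the DAC calls stayed, at 0.0220 in siLuc and 0.0388 in siStau1.

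MOV10 had a similar order of groups at a lower level: 22.8 FPKM with DMSO and 39.4 with DAC under siLuc, and 11.5 and 22.4 under siStau1. Its log2 ratio with DAC was 0.79 in siLuc and 0.96 in siStau1, and with the knockdown it was −0.98 in DMSO and −0.81 in DAC. None of these differences was called in the authors' deposited table, where the q-values were 0.127, 0.107, 0.105 and 0.0784 in that order. The unadjusted p-values in that table were 0.0147, 0.0111, 0.0108 and 0.0071.

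Of the APOBEC3 members, APOBEC3G was the one called, and only for DAC. It had 0.793 FPKM with DMSO and 3.399 with DAC under siLuc, and 0.677 and 4.71 under siStau1. Both DAC groups were thus above both DMSO groups, whichever siRNA was given. The rise was 4.29-fold in siLuc and 6.96-fold in siStau1, with q-values of 0.0142 and 0.00917 in the authors' deposited table. Between the siRNAs its log2 ratio was −0.20 in DMSO and 0.46 in DAC, with q-values of 0.915 and 0.713 there. APOBEC3G is known from lymphocytes, and the 9 markers of leukocytes, endothelium and fibroblasts also had higher values with DAC. Their summed level was 1.84 FPKM under siLuc with DMSO and 1.07 in siStau1 DMSO, against 13.0 in siLuc DAC and 9.69 in siStau1 DAC. Most of each sum came from the fibroblast collagen COL1A1, at 1.59, 0.826, 8.60 and 5.65 FPKM in that order. All 9 of these markers were higher with DAC in both arms, but only 4 of them had enough data to be tested in each arm. PTPRC, the leukocyte common antigen, was listed at 0 under DMSO with either siRNA, and had 0.174 and 0.820 FPKM with DAC, and CD3E stayed at or below 0.343 FPKM. The part of cells of other types in the APOBEC3G result was not tested.

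The other APOBEC3 members did not pass the authors' test in any of the 4 comparisons. APOBEC3F, a deaminase close to APOBEC3G in sequence, had 3.21 FPKM with DMSO and 6.45 with DAC under siLuc, and 2.95 and 5.73 under siStau1. Its DAC log2 ratios of 0.98 and 0.94 had q-values of 0.609 and 0.585 in the authors' deposited table. APOBEC3B, the nuclear member known for mutations in tumours, had 4.75, 9.53, 6.50 and 8.46 FPKM in the same order of groups. Its DAC log2 ratio was 0.99 in siLuc and 0.37 in siStau1, with q-values of 0.231 and 0.760 in that table. APOBEC3D had 0.109, 1.17, 0.193 and 0.559 FPKM, below or near 1 FPKM everywhere. Its DAC log2 ratio in siLuc was 2.60, but 0.97 with 1 FPKM added in place of 0.1 and 3.31 with 0.01, and in siStau1 it was 1.17, or 0.39 and 1.49. These differences had q-values of 0.418 and 0.823 in the authors' deposited table, and it was not tested there for the knockdown in DMSO. APOBEC3C, a deaminase with a single catalytic domain, was the member without a higher value under DAC: 11.9, 11.3, 16.9 and 13.8 FPKM. Its log2 ratio was −0.07 in siLuc and −0.29 in siStau1, and 0.50 and 0.28 for the knockdown in DMSO and DAC, with all 4 q-values in that table at or above 0.501.

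The makeup of APOBEC3 RNA was then compared between DMSO and DAC. Summed over the 7 genes of the cluster, APOBEC3 RNA came to 23.4 FPKM with DMSO and 33.2 with DAC under siLuc, and to 29.1 and 34.98 under siStau1. APOBEC3C held 50.6% of the sum in siLuc DMSO and 57.8% in siStau1 DMSO, and 34.1% and 39.4% with DAC. APOBEC3G held 3.38% and 2.32% with DMSO and 10.2% and 13.5% with DAC. These shares are descriptions of 1 value per group and carry no test.

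Position in the cluster did not order the DAC ratios. APOBEC3H, at the far end of the cluster and next to APOBEC3G, had 2.71 FPKM with DMSO and 1.26 with DAC under siLuc, a log2 ratio of −1.05, and −0.28 in siStau1; neither was called. APOBEC3A, at the near end, stood at or near 0 under DMSO with either siRNA, and had 0.110 and 0.147 FPKM with DAC. Of the 2 protein-coding genes on each side, NPTXR, CBX6 and CBX7 had DAC log2 ratios between −0.50 and 0.33 in the 2 arms. PDGFB, which encodes a growth factor chain, had 3.84 FPKM with DMSO and 11.8 with DAC under siLuc, and 1.60 and 9.05 under siStau1. The authors' deposited table called PDGFB in siStau1, at q = 0.00415, and not in siLuc, at q = 0.0975. The map of the cluster places these ratios by distance.

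**Figure D3:**
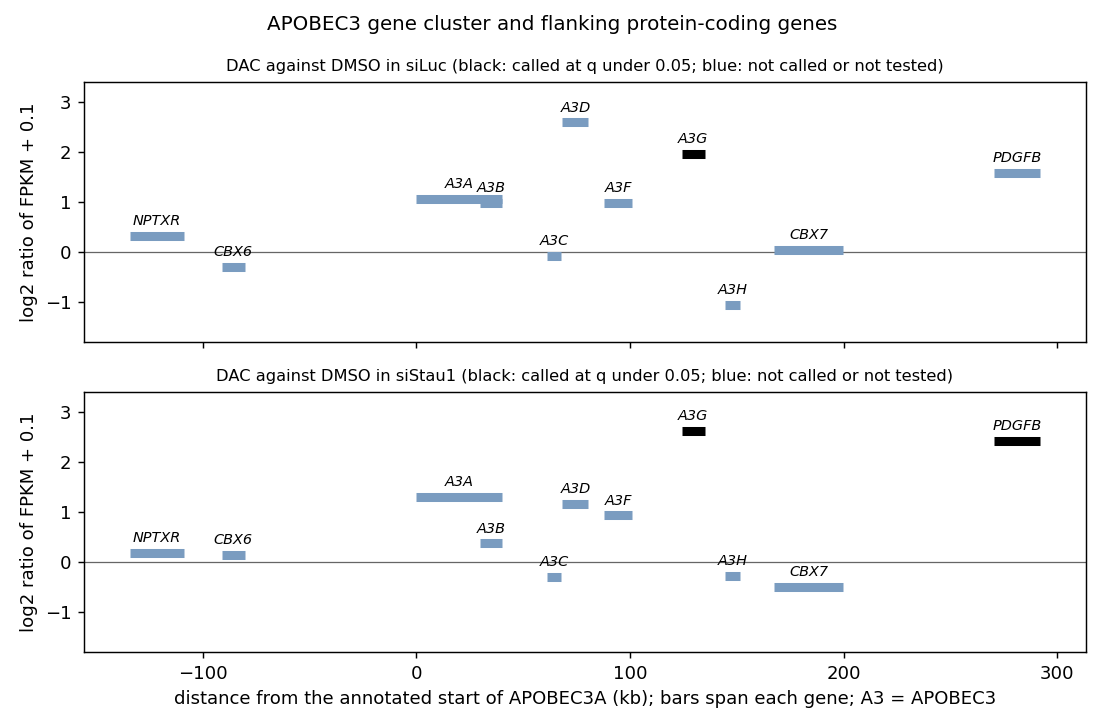
Log2 ratio of DAC over DMSO (vertical axis, FPKM with 0.1 added) for the genes of the APOBEC3 cluster and 2 flanking protein-coding genes on each side, by distance in kilobases from the annotated start of APOBEC3A, in siLuc (top) and siStau1 (bottom). Bars span each gene, black where the authors called it, and those of APOBEC3A rest on DMSO values at or near 0. APOBEC3G stands at 1.97 and 2.63, while its neighbour APOBEC3H stands at −1.05 and −0.28.

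TRIM5 and TREX1 were called in none of the 4 comparisons. TRIM5 had 17.3 FPKM with DMSO and 19.8 with DAC under siLuc, and 13.2 and 16.7 under siStau1. It thus stayed within a log2 range of 0.58 over the 4 groups, and its lowest q-value in the authors' deposited table was 0.866. TRIM22, whose span overlaps that of TRIM5 on the other strand, had 1.28, 9.09, 0.567 and 6.78 FPKM in the same order. Without counting by strand, reads from bases held by both genes cannot be told apart, and overlap of their exons was not examined. TREX1 had 5.43, 9.75, 3.95 and 5.34 FPKM in the same order. Its log2 ratio was 0.83 for DAC in siLuc, 0.42 in siStau1, −0.45 for the knockdown in DMSO and −0.86 in DAC, with q-values of 0.771 or more in that table. ATRIP, which shares its sequence, had 29.6, 28.1, 24.5 and 29.9 FPKM.

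Log2 ratios in these data moved with the GC content of transcripts. Over protein-coding genes at 1 FPKM or more in each of the compared groups, Spearman's rho across genes, which share the same libraries, was 0.659 for DAC in siLuc and −0.715 for the knockdown in DAC. The 9 genes cover a wide range, from 43.2% GC in TRIM5 and 44.2% in ZC3HAV1 to 56.6% in MOV10 and 63.1% in TREX1. Each ratio was therefore also centred on the median of genes in the same of 20 GC bins. ZC3HAV1 then had a log2 ratio of 1.60 for DAC in siLuc, 1.52 in siStau1, −1.37 for the knockdown in DMSO and −1.43 in DAC, so its ratios were larger in size than before centring. APOBEC3G had 1.54 and 2.26 for DAC after centring, in place of 1.97 and 2.63. MOV10 went from 0.79 to 0.03 for DAC in siLuc, from 0.96 to 0.40 in siStau1, and to −0.71 and −0.43 for the knockdown. TREX1 took the opposite sign for DAC, with −0.24 in siLuc and −0.34 in siStau1. The scatter of ratio against GC content shows ZC3HAV1 apart from genes of like GC content.

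**Figure D4:**
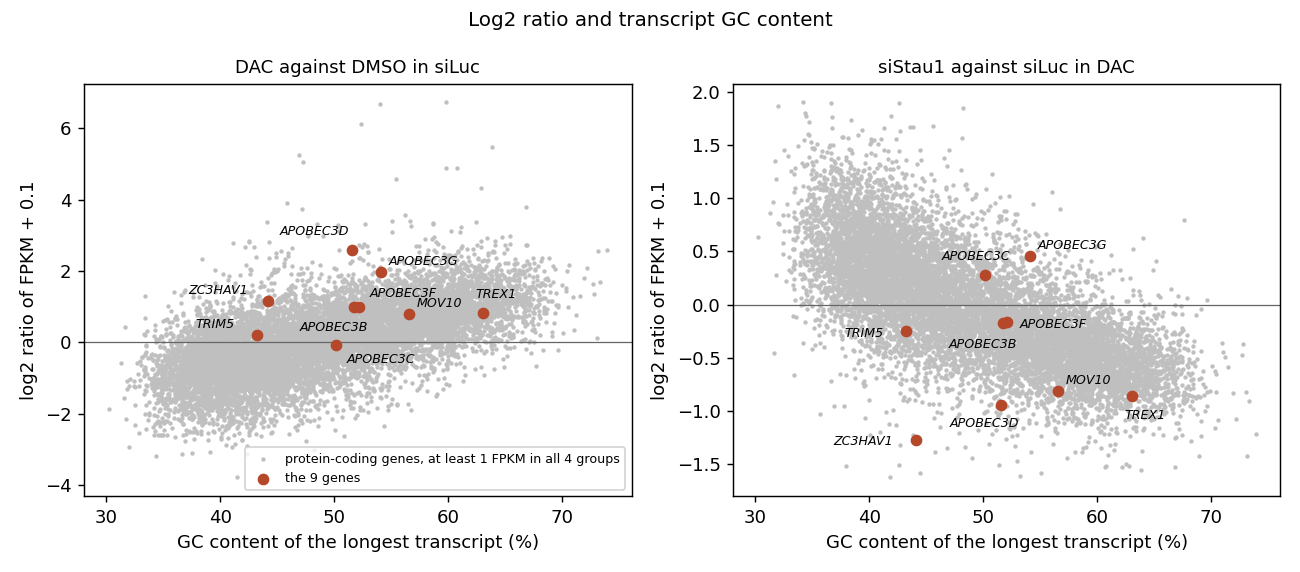
Log2 ratio (FPKM with 0.1 added) against GC content of the longest transcript in percent, for DAC in siLuc (left) and the knockdown in DAC (right). Grey points are protein-coding genes with at least 1 FPKM in all 4 groups, and red points are the 9 genes, of which APOBEC3D and APOBEC3G fall under that minimum in some group. At 44.2% GC, ZC3HAV1 lies at 1.16 on the left and at −1.27 on the right, and TREX1, at 63.1%, lies at 0.83 and −0.86.

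Whether DAC acted alike in both arms was described by the difference of the DAC log2 ratios, siStau1 minus siLuc, which was not tested because no value per library was given. For ZC3HAV1 it was 0.05, with a lower start and end in siStau1, and for MOV10 it was 0.17. After GC centring these differences were −0.08 for ZC3HAV1 and 0.370 for MOV10, the latter just above the centred upper quartile of 0.363. Before centring, the difference was 0.66 for APOBEC3G and −0.62 for APOBEC3B, outside the quartiles of −0.44 and 0.37 over the 15956 genes tested in both arms. In APOBEC3D, a gene with low values, it was −1.43 with 0.1 FPKM added, −0.58 with 1 added and −1.82 with 0.01 added. APOBEC3F, at −0.05, TRIM5, at 0.14, APOBEC3C, at −0.22, and TREX1, at −0.41, lay inside the quartiles.

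The knockdown with DAC was also set against the control siRNA with DMSO, a comparison added after the values were seen in which siRNA and drug both differ. ZC3HAV1, with 44.9 against 48.4 FPKM, and MOV10, with 22.4 against 22.8, had log2 ratios of −0.11 and −0.02 there. After GC centring that of ZC3HAV1 was 0.10, of the opposite sign, and that of MOV10 −0.31. Their q-values in the authors' deposited table were 0.926 and 0.981, which does not show that the levels are equal. APOBEC3G was the 1 of 9 genes called higher, where 4.02% of 16909 tested genes were, 5.93-fold above siLuc DMSO at q = 0.00162 in the authors' deposited table.

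Other genes of these pathways were counted from lists chosen by function. Of the 6 remaining APOBEC family genes, 1, APOBEC3H, had enough data to be tested, and it was not called. Of 7 paralogs and neighbours of TRIM5, TREX1, MOV10 and ZC3HAV1, 6 were tested for DAC in each arm. Called higher with DAC were 2 of 6 in siLuc, beside 8.71% of all tested genes, and 2 of 6 in siStau1, beside 4.56%. None was called with the knockdown, where 0.466% of all tested genes were called lower in DMSO and 0.469% in DAC. PARP12, a relative of ZC3HAV1, was called in both arms, with 35.8 FPKM under DMSO and 94.1 under DAC in siLuc and 21.3 and 63.0 in siStau1. TRIM22, an interferon-induced ligase beside TRIM5, was called in siStau1, from 0.567 to 6.78 FPKM, and MOV10L1, the germline relative of MOV10, in siLuc, where it was listed at 0 with DMSO and had 1.19 FPKM with DAC. Both also had higher values with DAC in the other arm, without a call. TRIM22 went from 1.28 to 9.09 FPKM in siLuc, and MOV10L1 from 0 to 1.27 FPKM in siStau1. The median log2 ratio of this list was 0.38 with DAC in siLuc, 0.67 in siStau1, and −0.69 and −0.16 with the knockdown in DMSO and DAC. After GC centring these medians were 0.82, 0.50, −0.51 and −0.25. Of 7 cofactors of ZC3HAV1, the RNA helicase DHX30 was the 1 called, in siLuc with DAC, from 35.5 to 70.7 FPKM. That is 1 of 7 tested, beside 8.71% of all tested genes called higher there. The log2 ratio of DHX30 went from 0.99 to 0.06 after GC centring. The list's median log2 ratio was 0.51, 0.19, −0.06 and −0.25 in the same order of comparisons, and after GC centring all 4 medians took the opposite sign, at −0.24, −0.26, 0.12 and 0.02. TRIM25, the ligase needed by ZC3HAV1, had 86.5 FPKM with DMSO and 156 with DAC under siLuc, 82.9 and 113 under siStau1, and was not called. EXOSC3, a subunit of the RNA exosome, had 108, 48.1, 91.4 and 57.5 FPKM in the same order and was not called either.

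Of 12 further restriction factors, MX2, a GTPase that blocks retroviral entry into the nucleus, was called with DAC in both arms. It rose to 19.8 FPKM from 2.93 in siLuc and to 13.9 from 0.498 in siStau1, and fell in siStau1 with DMSO, where the authors' deposited table gives q = 0.0221 (0.226 adjusted within that comparison). BST2 (tetherin), which holds budding virus at the cell surface, had 116 FPKM with DMSO and 189 with DAC under siLuc, and 11.3 and 105 under siStau1. It was called lower with the knockdown in DMSO and higher with DAC in siStau1, at q = 0.00162 for each of the pair in the authors' deposited table. With DAC in siLuc BST2 was not called, at q = 0.226 in that table. Its log2 ratio there went from 0.71 to −0.06 after GC centring. In all, 1 of 11 tested genes of this list was called higher with DAC in siLuc, beside 8.71% of all tested genes, and 2 of 11 in siStau1, beside 4.56%. With the knockdown, 2 of 10 were called lower in DMSO, beside 0.466%, and none of 11 was called in DAC by the authors' Cuffdiff test. Called or not, 11 of the 12 genes had a higher value with DAC in each arm, as did 57.1% and 54.1% of all tested genes. Some of these rises were small or near 0 FPKM, such as SLFN11 in siLuc, at 0 with DMSO and 0.0565 with DAC. With the knockdown in DMSO 9 of 12 had a lower value, while 48.7% of all tested genes had a higher one. The median log2 ratio of the list was 0.61 with DAC in siLuc, 0.70 in siStau1, and −0.19 and −0.17 with the knockdown in DMSO and DAC, and 0.63, 0.78, −0.25 and −0.20 after GC centring. SAMHD1, a nuclease and dNTPase that limits reverse transcription, had between 33.7 and 38.6 FPKM in all 4 groups and was not called. Among 9 genes of cytosolic DNA sensing and Aicardi-Goutieres syndrome, the disease of TREX1 loss, IRF3 was called with DAC in siLuc, from 18.8 to 65.3 FPKM, and IFIH1, a sensor of double-stranded RNA, with DAC in siStau1, from 12.9 to 29.1 FPKM. These were 1 of 9 tested in each arm, beside 8.71% of all tested genes called higher in siLuc and 4.56% in siStau1. In siStau1, IRF3 also went up with DAC, from 15.3 to 41.9 FPKM, a log2 ratio of 1.44 that was not called. In siLuc, IFIH1 had 27.2 FPKM with DMSO and 22.03 with DAC, a log2 ratio of −0.30, or 0.13 after GC centring, which was not called. The siLuc log2 ratio of IRF3, a transcription factor for interferon genes, went from 1.79 to 0.998 after GC centring, and that of IFIH1 in siStau1 from 1.17 to 1.48. The medians of the list were 0.68, 0.94, −0.30 and −0.55 in the 4 comparisons, and 0.37, 0.38, −0.12 and −0.09 after GC centring, and no gene of it was called with the knockdown. ADAR, the double-stranded RNA editor and the highest gene of the list, had 121 FPKM with DMSO and 176 with DAC under siLuc, 93.6 and 120.3 under siStau1, and was not called.

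Likeness of pattern was measured as the distance between log2 values centred over the 4 groups, among 12610 protein-coding genes with at least 1 FPKM in some group. APOBEC3G had the widest range of the 9 genes, at 2.63 on the log2 scale. Nearest to it were CPED1 (distance 0.224), GAB3 (0.238), MORN3 (0.253), ADAM8 (0.257) and LCP1, an actin-bundling protein (0.271). LCP1 had 0.979 FPKM with DMSO and 4.02 with DAC under siLuc, and 0.888 and 4.66 under siStau1. For ZC3HAV1, measured the same way after its values were seen, the nearest gene was TRIM56, a ubiquitin ligase of antiviral signalling (0.0888), with 5.02, 11.1, 2.04 and 4.91 FPKM. Next were PCBP3 (0.154), ARPC4-TTLL3 (0.227), the histone gene HIST2H2AA4 (0.230) and MYL5 (0.245). With 4 values per gene, many genes can lie close by, and nearness describes these groups only.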

How the data were processed

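Total RNA libraries were made with a stranded kit after ribosomal RNA depletion, per the labels' protocols, and whether counting used strand is not given in the sources used here. The deposited table holds 1 FPKM per gene and group, computed by the authors from 2 libraries, and per the submitters' processing notes HISAT2 2.1.0, Cuffdiff 2.2.1, Cuffnorm 2.2.1 and hg38 were used. The p-values and q-values were deposited by the authors for each pair of groups, the q-values adjusted over all pairs. No value per library was given, so no test of replicates was made here, calls were read from the deposited q-values with a limit of 0.05, and depth is unknown. Log2 ratios were computed from the deposited FPKM with a pseudocount of 0.1 (Python 3.11, numpy 2.4.6, pandas 2.3.3), which understates changes of low genes. GC content, positions and shared 50-base words came from GENCODE release 29, in which all 58699 gene identifiers were found. GC centring subtracted, within 20 bins, the median of protein-coding genes at 1 FPKM or more in each compared group, and was tested on simulated data. Alternatives were other pseudocounts, scalings, q-value limits and an FPKM minimum. All 9 genes are named. Of other lists, the most abundant and the called genes are named by the rule, at most 4 each. The genes and lists were chosen with earlier results of these data known. The 3 libraries of RNA bound by an antibody were not used, because their tables list repeat elements without genes.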

Additional observations from a re-analysis of the deposited data

How the results depend on the processing

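No paired analysis was possible because the table gives 1 value per group, and leaving out single libraries was not run for the same reason. At a q-value limit of 0.01, the members called fell from 2 to 0 for DAC in siLuc, from 2 to 1 in siStau1 and from 1 to 0 for the knockdown in DMSO, and stayed at 1 in DAC. Adjusted over each comparison alone, the knockdown calls went from 1 to 0 in DMSO and from 1 to 0 in DAC, against 2 members each at an unadjusted p under 0.05, and the DAC calls stayed at 2 in each arm. With at least 1 FPKM required in both groups, 1 member was called for DAC in each arm, beside 7.21% and 2.83% of the tested genes so filtered, since APOBEC3G is under 1 FPKM with DMSO. Of 180 alternative log2 ratios (pseudocounts of 1 and 0.01, centring on the median or within GC bins, rescaling to the sum over protein-coding genes), 175 kept their direction and 5 did not, all under GC centring and all for differences that were not called. These were TREX1 for DAC (−0.24 in siLuc and −0.34 in siStau1), APOBEC3F for the knockdown (0.059 in DMSO and 0.10 in DAC) and APOBEC3G for the knockdown in DMSO (0.031). Sizes moved more than directions for low genes: with 1 FPKM added, the DAC log2 ratio in siLuc went from 2.60 to 0.97 in APOBEC3D and from 1.97 to 1.29 in APOBEC3G. The comparison of siStau1 DAC with siLuc DMSO is not among the 180. For the difference between arms, GC centring turned APOBEC3F to 0.050 and ZC3HAV1 to −0.076, and rescaling turned APOBEC3F to 0.017. Rescaling moved the median of protein-coding genes from −0.09 to 0.05 for the knockdown in DAC, where ZC3HAV1 was then at −1.13.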
